A study of Homo sapiens with 9 samples.

Results

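The 5 long noncoding RNAs (lncRNAs), MALAT1, NEAT1, KCNQ1OT1, TUG1 and NORAD, described here were measured in MDA-MB-231 cells given the copper chelator TEPA. They were chosen by name, as 5 of the 59453 gene names in the count table, and because MALAT1 had been seen to rise after 8 h. All 5 passed the filter on low counts, among 16556 genes that did. RNA-Seq had been performed on 3 groups of 3 libraries: untreated cells, cells after 8 h of TEPA and cells after 24 h of TEPA. MDA-MB-231 is an established human triple-negative breast cancer line, and no genetic change separated the groups. The labels give TEPA at 8 mM, whereas the RNA sequencing methods give a lower concentration. Each treated library is labelled with its own time, 8 h or 24 h, although the general description of treatments names only 24 h. A single untreated group served both times, and the labels do not say whether the replicates came from separate cultures, so a p-value measures only the spread between these libraries. The labels give no time of harvest for the untreated cells. Time in culture therefore cannot be told apart from TEPA in the comparisons between groups.

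MALAT1 is a long nuclear RNA held in nuclear speckles, bodies rich in splicing factors. NEAT1 comes from the neighbouring gene, and its long isoform is the scaffold of paraspeckles, nuclear bodies that form on it. KCNQ1OT1 is an imprinted RNA known for silencing the genes around it on the paternal chromosome. TUG1 is found in both nucleus and cytoplasm. NORAD, although often listed with the others, is known mainly as a cytoplasmic RNA that binds PUMILIO proteins. Counts from whole cells do not measure where an RNA lies, so retention in the nucleus was not measured for any of the 5. They also cannot tell fewer expressing cells from less RNA per cell.

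On hg38, with GENCODE v44 positions, NEAT1 lies at chr11:65422774-65445540 and MALAT1 at chr11:65497640-65508073, both on the plus strand and 52.1 kb apart. KCNQ1OT1 lies at chr11:2597308-2700003 on the minus strand, far from that pair. NORAD is a single-transcript gene at chr20:36045618-36051018 on the minus strand. TUG1 lies at chr22:30969245-30979395 on the plus strand and is annotated as protein coding in that release.

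The way MALAT1 and NEAT1 end bears on how they were measured. Both the mature MALAT1 RNA and the long NEAT1 isoform are cut free by RNase P beside a small tRNA-like RNA and end in a triple helix instead of a poly(A) tail, while the libraries were made with a kit that selects poly(A). The last 110 bases before each annotated small RNA are shown, with the stretches of 8 or more bases that both ends share in capitals, for MALAT1 at chr11:65506007-65506116 and for NEAT1 at chr11:65445431-65445540, followed by the small RNAs at chr11:65506117-65506173 and chr11:65445541-65445598.
MALAT1 end: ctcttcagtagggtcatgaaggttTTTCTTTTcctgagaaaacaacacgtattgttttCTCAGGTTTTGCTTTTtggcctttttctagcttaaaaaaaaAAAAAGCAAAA
NEAT1 end: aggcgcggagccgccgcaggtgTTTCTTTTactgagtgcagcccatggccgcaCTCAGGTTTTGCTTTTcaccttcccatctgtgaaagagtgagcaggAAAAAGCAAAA
MALAT1 small RNA: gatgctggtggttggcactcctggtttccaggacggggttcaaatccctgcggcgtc
NEAT1 small RNA: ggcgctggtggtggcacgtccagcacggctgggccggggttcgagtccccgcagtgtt
The 3 shared stretches were TTTCTTTT and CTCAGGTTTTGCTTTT, which hold the U-rich runs, and the A-rich AAAAAGCAAAA that closes both ends. Of 62700 genes searched in their longest annotated transcript, only MALAT1 and NEAT1, from which the stretches were read, held all 3 on the sense strand in this order with gaps of at most 60 bases. The longest run of A was 13 bases in the MALAT1 end and 5 bases in the NEAT1 end. Any difference in how the kit captured the 2 RNAs was not tested.

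NORAD stood apart in its PUMILIO-type motif, TGTANATA, with N any base. The motif occurred 15 times on the sense strand of its 5401-base transcript, or 2.78 matches per kb. MALAT1 had 0 matches in 10434 bases, NEAT1 had 6 in 22743, KCNQ1OT1 had 9 in 91667 and TUG1 had 2 in 7474. Among 2357 genes whose longest transcript had 4860 to 5941 bases, 44.2% held at least 1 match and the median was 0. The highest was 16, and 3 genes, NORAD among them, held 15 or more. On the antisense strand NORAD held 1 match. In NORAD, 3 stretches hold a pair of matches starting 9 bases apart, at chr20:36049487-36049535, chr20:36048290-36048338 and chr20:36047654-36047702, and they are printed as the RNA reads, minus strand, with the motif in capitals.
NORAD window 1: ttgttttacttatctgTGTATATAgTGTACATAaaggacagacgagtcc
NORAD window 2: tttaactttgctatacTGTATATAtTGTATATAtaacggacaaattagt
NORAD window 3: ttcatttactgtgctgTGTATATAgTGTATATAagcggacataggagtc
A match is a run of letters and not a measured binding site.

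**Figure D1:**
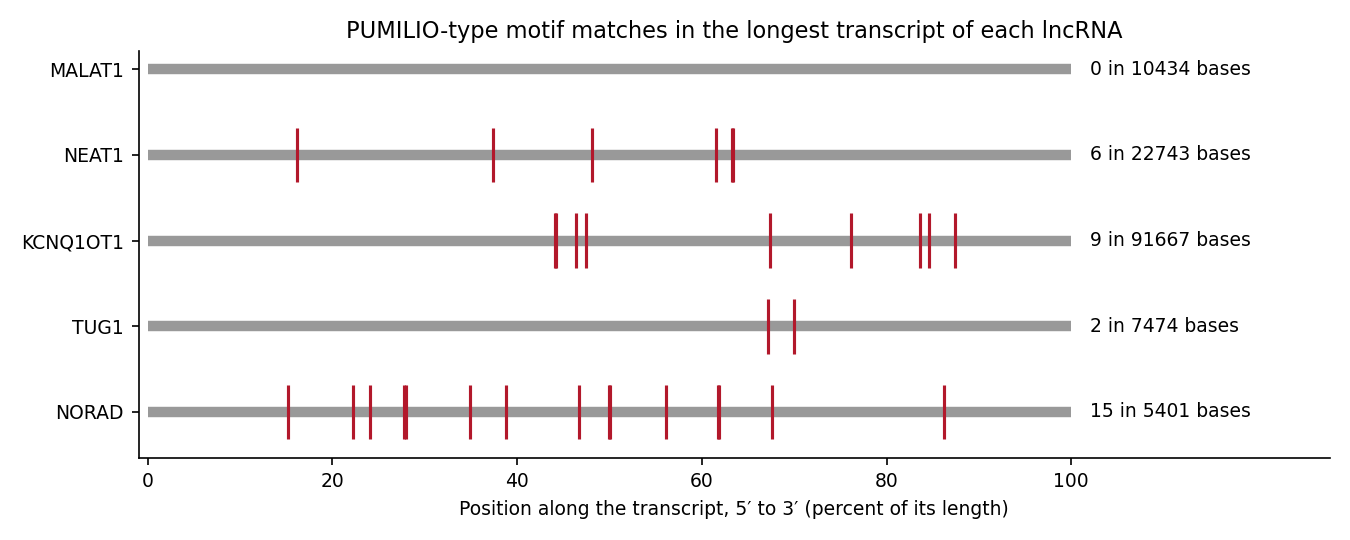
Each grey bar is the longest annotated transcript of 1 lncRNA scaled to its length (x axis, percent of the length from the 5′ end), and each red mark is 1 sense TGTANATA match. NORAD carries 15 matches spread over most of its length and MALAT1 carries 0.

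Promoter sequences, from 250 bases before to 50 bases after a RefSeq start site on GRCh38.p14, were matched for MALAT1, TUG1 and NORAD. Those of MALAT1 and NORAD are shown because these 2 lncRNAs had the most different patterns. The motifs searched on both strands were TATAAA, the letters ACGTG and GCGTG found in hypoxia response elements, and TGCACNC and TGCGCNC found in metal response elements. Matches are in capitals, and ACGTG on both strands overlaps in the E-box CACGTG. Printed are the MALAT1 promoter at chr11:65498795-65499094, plus strand, and the NORAD promoter at chr20:36050911-36051210, minus strand.
MALAT1 promoter 2: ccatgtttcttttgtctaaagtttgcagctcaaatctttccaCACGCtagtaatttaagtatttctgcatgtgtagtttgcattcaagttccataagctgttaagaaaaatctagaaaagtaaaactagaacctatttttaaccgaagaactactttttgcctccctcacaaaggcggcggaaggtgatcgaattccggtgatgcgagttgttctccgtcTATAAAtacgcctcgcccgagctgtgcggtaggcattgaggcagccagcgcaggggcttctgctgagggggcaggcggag
NORAD promoter 1: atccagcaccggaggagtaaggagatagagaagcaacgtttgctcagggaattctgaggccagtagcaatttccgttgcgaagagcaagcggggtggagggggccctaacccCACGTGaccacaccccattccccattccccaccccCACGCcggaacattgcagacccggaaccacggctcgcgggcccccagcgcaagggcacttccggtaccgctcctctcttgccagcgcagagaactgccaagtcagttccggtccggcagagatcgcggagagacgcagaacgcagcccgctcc
This MALAT1 window held TATAAA at position -30 and GCGTG on the opposite strand at -208, counted from the start site. A window at an earlier MALAT1 start held GCGTG on both strands and TGCGCNC on the opposite strand. NORAD held CACGTG and 1 further GCGTG on the opposite strand, and TUG1 held CACGTG and 2 sense GCGTG matches. Across 35116 promoters of this length, TATAAA occurred in 11.5%, ACGTG in 21.4%, GCGTG in 36.5%, TGCACNC in 12.1% and TGCGCNC in 20% on either strand. These are descriptions of letters only.

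Total counts ran from 34633755 to 49342659 per library. VIM, CD44 and AXL, which this mesenchymal-like line is known to express, were at or above 560 CPM (read counts brought to 1 common library size) in every library, while PGR was at 0 and ESR1 did not exceed 9 counts. The epithelial markers CDH1 and EPCAM were low, at up to 3.89 and 1.86 CPM, and CDH1 was higher at 24 h (log2 fold change 2.33, adjusted p = 1.1e-06). Untreated replicates 1 and 2 stood farthest apart, with a chi-square of 21.4 per gene against 2.38 to 8.65 for the other pairs within a group. Replicate 1 held the lowest untreated level of MALAT1, NEAT1, KCNQ1OT1 and TUG1. Without replicate 1 or without replicate 2, the 8 h log2 fold change was 1.84 or 2.10 for MALAT1, 0.78 or 0.91 for NEAT1 and 0.38 or 0.53 for KCNQ1OT1. The 24 h values were 0.31 or 0.58 for MALAT1, -0.86 or -0.73 for NEAT1 and -0.05 or 0.10 for KCNQ1OT1. Mitochondrially encoded genes took 1.79% to 2.91% of counts in untreated libraries, 3.61% to 4.02% at 8 h and 1.89% to 2.02% at 24 h. Of 8 listed RNAs without a poly(A) tail, 4 (RN7SK, RN7SL2, RPPH1 and TERC) were at 0 in every library and 6 stayed under 10 counts in each. Their summed level was 1.45 to 2.45 CPM in untreated, 2.22 to 3.13 CPM in 8 h and 2.92 to 6.53 CPM in 24 h libraries, nearly all of it RN7SL1. The sum thus rests on 1 RNA and does not measure how fully RNA without a poly(A) tail was excluded.

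MALAT1 was the most changed of the 5 at 8 h. Untreated replicates 1 to 3 held 8.13, 11.8 and 10.3 CPM of MALAT1. After 8 h of TEPA the libraries held 41.3, 39.2 and 38.8 CPM, and after 24 h 14.2, 11.9 and 15.3 CPM. All 3 libraries at 8 h stood far above every other library, and the lowest 24 h library lay just above the highest untreated one. The means were 10.1 ± 1.85, 39.8 ± 1.34 and 13.8 ± 1.74 CPM (SD, n = 3). MALAT1 was therefore 3.92-fold above untreated cells at 8 h, a log2 fold change of 1.97 (standard error 0.10). This is the rise for which MALAT1 was chosen, so it is given without a test, and 55 of 16556 genes, 5 of them among 1012 annotated lncRNA genes, rose more. From 8 h to 24 h its log2 level was lower by a difference of -1.53 (standard error 0.10), also given without a test because the 8 h libraries entered its choice. At 24 h MALAT1 differed from untreated cells by 0.45 on the log2 scale (standard error 0.11), again without a test, since the untreated libraries entered its choice as well. The share of mitochondrially encoded counts was highest in the 8 h libraries too, at 3.61% to 4.02%. With those genes left out of the table the 8 h log2 fold change of MALAT1 was 1.97. That step moved the median of all genes by only -0.004, so it could hardly change this value. A link between the share and MALAT1 was not tested.

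**Figure D2:**
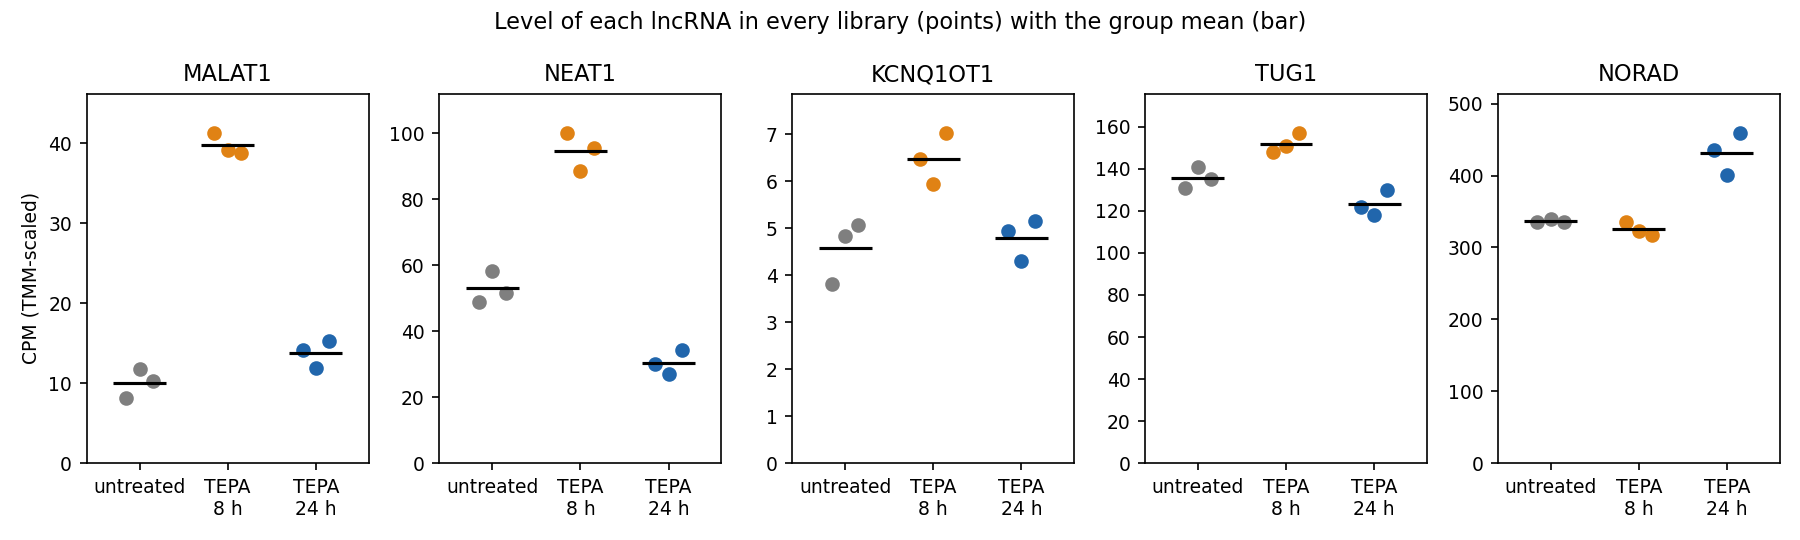
The y axes give CPM on a linear scale from 0, different in each panel; points are the 3 libraries of each group in replicate order and the bars are group means. MALAT1 at 8 h (38.8 to 41.3 CPM) and NEAT1 at 8 h (88.4 to 100 CPM) stand clear of their other libraries, whereas NORAD is highest at 24 h (401 to 459 CPM).

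NEAT1 lay above untreated cells at 8 h and below them at 24 h. Its level was 48.9, 58.3 and 51.6 CPM in untreated libraries. TEPA libraries held 100, 88.4 and 95.4 CPM at 8 h and 30, 27.1 and 34.2 CPM at 24 h. The 3 groups did not overlap, with 8 h on top and 24 h at the bottom. Means were 52.9 ± 4.83, 94.7 ± 5.92 and 30.4 ± 3.56 CPM (SD, n = 3). At 8 h NEAT1 was 1.79-fold above untreated cells, a log2 fold change of 0.84 (standard error 0.07), and 1073 genes rose more. NEAT1 fell below untreated cells at 24 h (log2 fold change -0.80, standard error 0.08, adjusted p = 4.6e-07 by edgeR's quasi-likelihood test with Benjamini-Hochberg adjustment), and the fall from 8 h to 24 h was itself called (-1.64, standard error 0.08, adjusted p = 2.9e-10). In that last comparison 147 genes fell more than NEAT1 and 177 fell more than MALAT1. The counts are per gene and do not separate the short polyadenylated NEAT1 isoform from the long one.

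NORAD, the most abundant of the 5, was higher at 24 h than in either other group. Untreated libraries held 336, 339 and 336 CPM. Levels were 335, 323 and 317 CPM at 8 h and 435, 401 and 459 CPM at 24 h. The 8 h libraries all lay below the untreated ones, the highest of them just so, and the 24 h libraries all lay above. With means of 337 ± 1.72, 325 ± 9.21 and 432 ± 29.2 CPM (SD, n = 3), NORAD differed at 8 h by -0.05 on the log2 scale (standard error 0.04), given without a test. At 24 h NORAD rose above untreated cells (0.36, standard error 0.04, adjusted p = 6e-06 by edgeR's quasi-likelihood fit) and above the 8 h libraries (0.41, standard error 0.04, adjusted p = 1.3e-06).

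TUG1 followed the order of NEAT1 at a much smaller size. It was measured at 131, 141 and 135 CPM in untreated cells. The TEPA values were 148, 151 and 157 CPM at 8 h and 122, 118 and 130 CPM at 24 h. No groups overlapped, although the highest 24 h library lay close to the lowest untreated one. The means were 136 ± 4.71, 152 ± 4.54 and 123 ± 6.12 CPM (SD, n = 3), and the 8 h log2 fold change was 0.16 (standard error 0.04), without a test. TUG1 was lower at 24 h than in untreated cells (-0.14, standard error 0.04, adjusted p = 0.013 by edgeR's quasi-likelihood fit). That call was lost without untreated replicate 2 (-0.11, adjusted p = 0.057), without TEPA 24 h replicate 1 (-0.13, adjusted p = 0.051) and without TEPA 24 h replicate 2 (-0.11, adjusted p = 0.06). The fall from 8 h to 24 h was called (-0.30, standard error 0.04, adjusted p = 2.5e-05).

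KCNQ1OT1 was the least abundant. Its libraries held 3.81, 4.84 and 5.07 CPM in untreated cells, from 143, 221 and 200 counts. They held 6.47, 5.93 and 7.02 CPM at 8 h and 4.94, 4.29 and 5.14 CPM at 24 h. The 8 h libraries were the highest, and the untreated and 24 h libraries overlapped. Means were 4.57 ± 0.67, 6.48 ± 0.543 and 4.79 ± 0.449 CPM (SD, n = 3). The 8 h log2 fold change was 0.50 (standard error 0.12), without a test. At 24 h no difference from untreated cells passed the test (0.06, standard error 0.12, adjusted p = 0.7 by edgeR's quasi-likelihood fit), and the fall from 8 h to 24 h was called (-0.44, standard error 0.12, adjusted p = 0.0049).

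Side by side, 4 of the 5 lncRNAs, all but NORAD, were higher at 8 h with no overlap with untreated libraries, where 29.2% of all genes tested were higher and 28.6% lower in this way. This comparison holds the rise that chose MALAT1, so nothing is read from the count. Of the 4 tested at 24 h against untreated cells, 1 (NORAD) was called higher and 2 (NEAT1 and TUG1) lower, where 25.7% and 26.8% of all genes tested were called higher and lower. The same 3 did not overlap with untreated libraries, and nor did MALAT1, as 28.4% of all genes did upward and 28.9% downward. From 8 h to 24 h, NEAT1, TUG1 and KCNQ1OT1 were called lower and NORAD higher, against 28.8% and 26% of all genes. In that comparison 32.4% of all genes lay wholly lower and 29.6% wholly higher. Calls were thus common in this experiment, and the size of a change separates the lncRNAs more than a call does. For the 1012 annotated lncRNA genes tested, the median log2 fold change was 0.08 at 8 h and 0.12 at 24 h, beside 0 over all genes at both times. The 2 times share their untreated libraries.

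**Figure D3:**
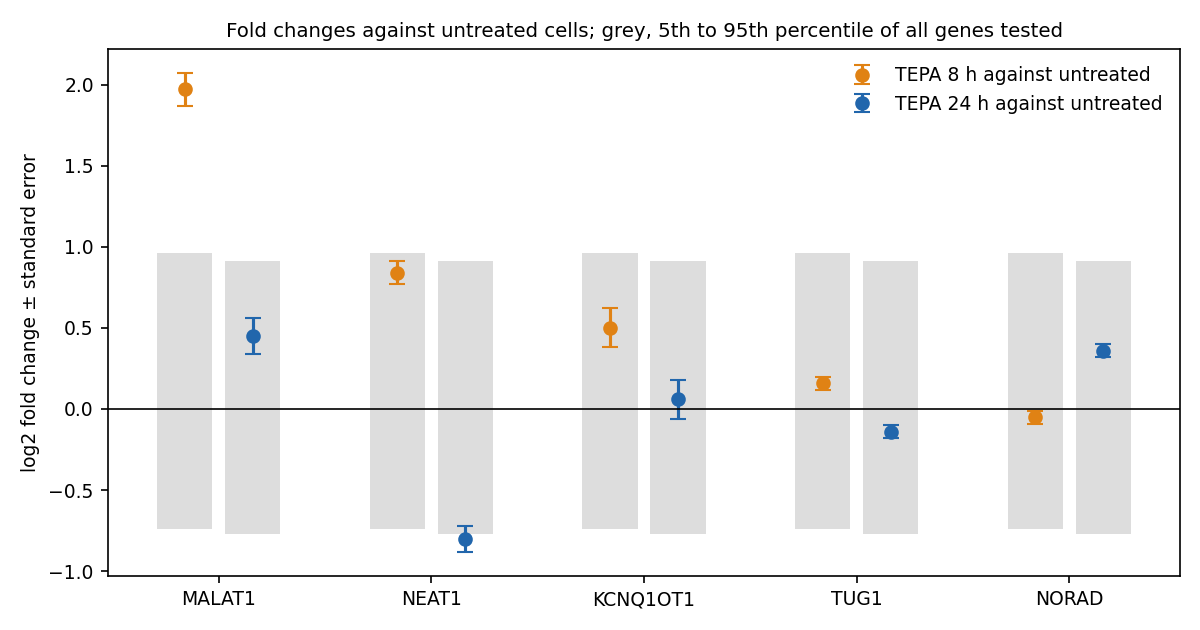
The y axis gives the log2 fold change against untreated cells with its standard error for each lncRNA at 8 h (orange) and 24 h (blue); grey bars span the 5th to 95th percentile of all 16556 genes, -0.74 to 0.96 at 8 h and -0.77 to 0.91 at 24 h. MALAT1 at 8 h (1.97) lies above its grey bar and NEAT1 at 24 h (-0.80) just below its own.

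Per length, the order of the means was the same in all 3 groups, although MALAT1 and NEAT1 came to overlap with TEPA. Values are RPKM, CPM divided by the kb of annotated exons, and the authors counted on another annotation release than the lengths used. All annotated exons entered the length, 22767 bases for NEAT1, whichever isoforms the poly(A) kit captured. The order, the overlaps and the shares below therefore also rest on capture and isoform, which were not measured. In untreated cells NORAD stood highest at 62.4 ± 0.318 RPKM, followed by TUG1 at 13.4 ± 0.464, NEAT1 at 2.33 ± 0.212, MALAT1 at 0.966 ± 0.178 and KCNQ1OT1 at 0.0494 ± 0.00723 RPKM (SD, n = 3). No neighbours in that order overlapped. At 8 h MALAT1 (3.72 to 3.96 RPKM) overlapped NEAT1 (3.88 to 4.4 RPKM), and at 24 h they overlapped again (1.14 to 1.47 against 1.19 to 1.5 RPKM). KCNQ1OT1 lay between 0.0412 and 0.0758 RPKM throughout. The summed level of the 5 was 540 ± 13.3, 618 ± 12 and 604 ± 40.8 CPM in untreated, 8 h and 24 h libraries. NORAD made up 62.4%, 52.6% and 71.5% of that sum in the 3 groups, and MALAT1 1.86%, 6.44% and 2.28%.

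The genes of paraspeckle proteins, which assemble on long NEAT1, went in no common direction at 8 h and were mostly lower at 24 h. Their RNA was counted and not the proteins, and a link with the NEAT1 level was not tested. The list of NORAD partners below had a similar median at 24 h (-0.23). Of 12 genes, 4 were called higher and 4 lower at 8 h (median log2 fold change 0.04), against 25.2% and 24.5% of all genes. At 24 h, 10 were lower and 1 higher (median -0.24), against 26.8% and 25.7% of all genes. The shares of all genes called at each time stand for the lists that follow as well: 25.2% higher and 24.5% lower at 8 h, 25.7% higher and 26.8% lower at 24 h. SFPQ, a core paraspeckle protein, had a log2 fold change of -0.59 (standard error 0.04, adjusted p = 4.6e-09) and HNRNPH3 one of -0.43 (adjusted p = 3e-06) at 24 h, all adjusted p-values here being by edgeR's quasi-likelihood fit. RBM12 was already lower at 8 h (-0.43, adjusted p = 5.6e-07).

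Of the 3 genes known to act on the choice between NEAT1 isoforms, CPSF6 and TARDBP were higher at 8 h (0.15, adjusted p = 0.0066, and 0.19, adjusted p = 0.0077) and lower at 24 h (-0.34 for both, adjusted p = 7.3e-06 and 6.4e-05). Without TEPA 8 h replicate 1 the 8 h call of TARDBP was lost (0.14, adjusted p = 0.057). NUDT21, the partner of CPSF6 in poly(A) site choice, was at -0.01 (adjusted p = 0.85) and -0.06 (adjusted p = 0.39).

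Among 9 genes that process the MALAT1 end or bind its triple helix, 5 were higher and 1 lower at 8 h (median 0.16; 25.2% and 24.5% of all genes), and 4 were higher and 4 lower at 24 h (median -0.12; 25.7% and 26.8%). RPP40, an RNase P subunit, rose at both times (0.39, adjusted p = 0.0017, and 0.55, adjusted p = 6.8e-05). RPP25, another subunit, fell at both (-0.33, adjusted p = 1.2e-05, and -0.31, adjusted p = 1.4e-05). TRNT1, which adds CCA to tRNA ends, was higher by 0.26 (adjusted p = 0.012) and 0.22 (adjusted p = 0.031). Leaving out 1 library ended the TRNT1 call in 5 cases, untreated replicate 3 and TEPA 8 h replicate 1 at 8 h (adjusted p = 0.059 and 0.1) and untreated replicate 3, TEPA 24 h replicate 1 and TEPA 24 h replicate 3 at 24 h (0.11, 0.12 and 0.083).

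The 5 genes listed for the nuclear speckles in which MALAT1 resides were 2 scaffolds, SRRM2 and SON, and splicing factors. At 8 h 2 were called higher and 0 lower (median 0.06), against 25.2% and 24.5% of all genes. At 24 h 1 was higher and 2 were lower (median -0.08), against 25.7% and 26.8%. SRRM2 measured 437 ± 57.6 CPM without TEPA and 775 ± 31.1 CPM after 8 h (SD, n = 3), which was 0.83 on the log2 scale (adjusted p = 1.4e-07), and SON, its fellow scaffold, rose by 0.34 (adjusted p = 1.7e-06). At 24 h SON was still higher (0.12, adjusted p = 0.012) and SRRM2 did not pass (0.16, adjusted p = 0.067). SRRM2 did pass at 24 h without untreated replicate 2 (0.24, adjusted p = 0.0032), with upper-quartile factors (0.036), under DESeq2 (0.032), under the replicate block (0.043) and without a filter (0.00062). SRSF1, a splicing factor, was lower at 24 h (-0.42, adjusted p = 0.024), a call lost under DESeq2 (-0.41, adjusted p = 0.13) and without untreated replicate 3 (-0.32, adjusted p = 0.12), TEPA 24 h replicate 1 (-0.44, adjusted p = 0.052) or TEPA 24 h replicate 2 (-0.28, adjusted p = 0.13).

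Nuclear RNA decay genes were higher in 6 and lower in 1 of 11 cases at 8 h (median 0.12), against 25.2% and 24.5% of all genes. ZFC3H1, of the PAXT connection that feeds polyadenylated nuclear RNA to the exosome, rose by 0.50 (adjusted p = 1.3e-07) and PABPN1, the nuclear poly(A) binding protein, by 0.48 (adjusted p = 1.3e-05). At 24 h ZFC3H1 was still higher (0.22, adjusted p = 3e-04), PABPN1 was at -0.12 (adjusted p = 0.12) but was called lower without untreated replicate 1 (-0.19, adjusted p = 0.01), and the list stood at 3 higher and 2 lower (median 0.03). MPHOSPH6, an exosome cofactor, was lower at 24 h (-0.38, adjusted p = 0.00011). It was also the 1 gene lower at 8 h (-0.16, adjusted p = 0.048), a call lost without untreated replicates 2 or 3 (0.14 and 0.094) or TEPA 8 h replicates 2 or 3 (0.12 and 0.13), and under upper-quartile factors (0.073), a filter of 10 counts in every library (0.05), the replicate block (0.075) and DESeq2 (0.054). Of 7 mRNA export genes, 5 were higher and 1 lower at 8 h (median 0.17), against 25.2% and 24.5% of all genes. At 24 h 2 were higher and 2 lower (median 0.08), near the 25.7% and 26.8% of all genes. DDX39B, an export helicase, went from 34.9 ± 2.34 to 93.9 ± 3.95 and 54 ± 2.81 CPM (SD, n = 3), with log2 fold changes of 1.43 (adjusted p = 1.3e-10) and 0.63 (adjusted p = 1.5e-07). Counts were made per gene name. Whether annotated genes that overlap DDX39B or PABPN1 affected their counts was not examined, so these values may not stand for the whole transcript. NXF1, the main mRNA export receptor, rose at 8 h (0.42, adjusted p = 7.7e-07) and was at 0.08 (adjusted p = 0.098) at 24 h, where it passed without TEPA 24 h replicate 3 (0.11, adjusted p = 0.049) and with upper-quartile factors (0.11, adjusted p = 0.033). MCM3AP rose at both times (0.36, adjusted p = 1.5e-06, and 0.27, adjusted p = 2e-05).

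The genes of protein partners of NORAD went in both directions. Of 7 genes, 3 were higher and 2 lower at 8 h (median 0.08), and 1 was higher and 4 lower at 24 h (median -0.23), where 25.7% and 26.8% of all genes were called. PUM2, a PUMILIO protein, was called higher after 8 h (0.12, adjusted p = 0.041) and also after 24 h (0.14, adjusted p = 0.022). The 8 h call was lost without any 1 of the 6 libraries (adjusted p up to 0.14), under DESeq2 (0.053), without a filter (0.059) and under the replicate block (0.06), and the 24 h call without TEPA 24 h replicate 1 (0.14, adjusted p = 0.054) or replicate 3 (0.08, adjusted p = 0.12). TOP1, a topoisomerase, was lower at both times (-0.24, adjusted p = 0.00016, and -0.58, adjusted p = 1.2e-08). PRPF19 and RBMX, both splicing-related, were higher at 8 h (0.12, adjusted p = 0.024, and 0.18, adjusted p = 0.00098) and lower at 24 h (-0.33, adjusted p = 6e-06, and -0.31, adjusted p = 6.1e-06). For PRPF19 the 8 h call ended when any of 5 of the 6 libraries was left out (untreated replicates 1 and 3 and each 8 h library), at adjusted p-values of up to 0.1. PUM2 was named after its values were seen.

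In the imprinted domain around KCNQ1OT1, more genes were called lower than higher with TEPA. Of 9 listed, 6 were tested, with 1 higher and 4 lower at 8 h (median -0.29) and 0 higher and 5 lower at 24 h (median -0.33). The share called lower over all genes was 24.5% and 26.8%, respectively. KCNQ1, in whose introns KCNQ1OT1 lies on the other strand, had 5 counts in all libraries together. CDKN1C, a cell cycle inhibitor, measured 4.11 ± 0.432, 3.06 ± 0.724 and 2.09 ± 0.224 CPM without TEPA, after 8 h and after 24 h (SD, n = 3), and it was lower at 24 h (-0.96, adjusted p = 0.00013). Its 8 h call (-0.42, adjusted p = 0.037) was lost under the replicate block (adjusted p = 0.054), with only the 2 groups compared (0.052), and without untreated replicates 1 or 3 (0.071 and 0.11) or TEPA 8 h replicates 1 or 3 (0.18 and 0.064), with values between -0.45 and -0.25. SLC22A18, a transporter, was lower at both times (-0.63, adjusted p = 9.4e-05, and -0.45, adjusted p = 0.0012), as was PHLDA2 (-0.50, adjusted p = 2.7e-07, and -0.30, adjusted p = 3.4e-05). KCNQ1OT1 itself did not differ from untreated cells by the test at 24 h. Of the 3 genes of PRC2, a complex reported to act with such RNAs, EZH2 was lower at 24 h (-0.49, adjusted p = 2.4e-07), while SUZ12 and EED did not pass at either time (smallest adjusted p = 0.092). SUZ12 passed at 24 h without untreated replicate 1 (-0.16, adjusted p = 0.029) and without a filter (-0.13, adjusted p = 0.039).

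Genes beside the lncRNAs went in both directions. Of 12 neighbours of NEAT1 and MALAT1, 9 were tested, 3 of them higher and 0 lower at 8 h (median 0.07), near the 25.2% of all genes called higher. SLC25A45, a mitochondrial carrier 39.1 kb from NEAT1, rose at 8 h (0.51, adjusted p = 0.0011) and was at 0.20 (adjusted p = 0.14) at 24 h. At 24 h 3 neighbours were higher and 2 lower (median 0.03), with DPF2 at -0.26 (adjusted p = 6.4e-05) and EHBP1L1 at 0.21 (adjusted p = 0.00026). TALAM1, the antisense RNA of MALAT1, was not analysed here. MORC2, next to TUG1, was lower at both times (-0.43, adjusted p = 9e-06, and -0.25, adjusted p = 0.00097). Beside NORAD, CNBD2 was higher at 24 h (0.63, adjusted p = 0.0018) and EPB41L1 lower (-0.31, adjusted p = 5.9e-05). At 8 h EPB41L1 was also lower (-0.13, adjusted p = 0.031), a call lost without untreated replicate 1, TEPA 8 h replicate 1 or TEPA 8 h replicate 3 (-0.09, -0.12 and -0.13, adjusted p = 0.11, 0.089 and 0.084).

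Other lncRNAs known to be nuclear were higher in 3 and lower in 0 of 6 tested cases at 8 h (median 0.42), and higher in 2 and lower in 2 at 24 h (median -0.02). The 3 higher at 8 h, MIR17HG and MIAT among them, each had a mean under 100 counts. The 3 with a mean above 100 counts, FTX and CHASERR among them, were not called at 8 h. Of 1012 annotated lncRNA genes, 28.1% were called higher and 15.8% lower at 8 h, and 27.2% and 14.6% at 24 h. The 2 lower at 24 h were MIR17HG (-0.73, adjusted p = 0.022), a call lost without untreated replicates 2 or 3 (0.098 and 0.083) or TEPA 24 h replicates 2 or 3 (0.097 and 0.062), and MIAT (-1.19, adjusted p = 0.011), lost without untreated replicate 2 (0.063). Both were named after their values were seen. FTX, from the X-inactivation centre, and CHASERR, upstream of CHD2, were higher at 24 h (0.37, adjusted p = 0.0028, and 0.31, adjusted p = 0.0018). At 8 h they were at 0.17 (adjusted p = 0.14) and -0.10 (adjusted p = 0.27). Of 3 cytoplasmic lncRNAs, OIP5-AS1 and CYTOR were lower at 8 h (-0.22, adjusted p = 0.0063, and -0.18, adjusted p = 0.0013). At 24 h CYTOR was lower (-0.30, adjusted p = 1.1e-05), DANCR was higher (0.35, adjusted p = 8.9e-05) and OIP5-AS1 was at 0.06 (adjusted p = 0.42), passing without TEPA 24 h replicate 2 (0.14, adjusted p = 0.022).

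**Figure D4:**
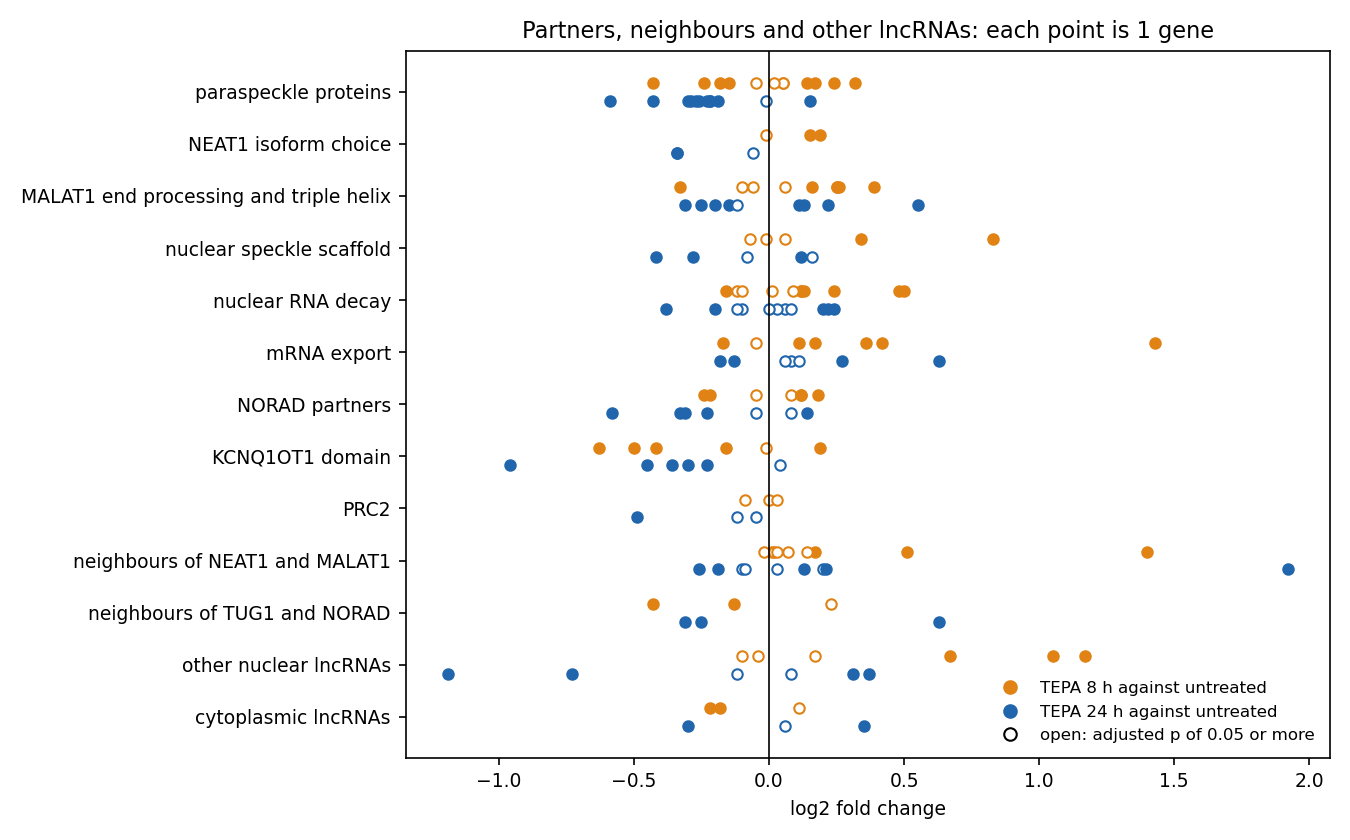
Each point is 1 tested gene of the list on the y axis, placed by its log2 fold change against untreated cells (x axis) at 8 h (orange) or 24 h (blue), and open points did not pass the test. Genes of paraspeckle proteins lie mostly left of 0 at 24 h (median -0.24), and DDX39B is the mRNA export gene at 1.43.

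Genes whose pattern over the 9 libraries was nearest to each lncRNA were found by the root mean square difference of log2 CPM, after each gene was centred on its own mean, among 11919 genes with a mean of at least 100 counts. Nearest to MALAT1 were YJEFN3 (0.14), NDUFA13 (0.16), AC010735.1 (0.18), GGT4P (0.19) and MIR23AHG (0.19). For YJEFN3 and NDUFA13, the log2 fold changes were 1.92 and 1.84 at 8 h against 0.56 and 0.19 at 24 h. These 2 genes overlap on the same strand, and GGT4P is a pseudogene with related copies, so their counts are uncertain. Among those nearest to NEAT1 were SNHG20 (0.1), AC083843.2 (0.1), LCP1 (0.11) and SH2D5 (0.15). LCP1, which encodes the actin-bundling protein L-plastin, had log2 fold changes of 0.93 and -0.89.

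NORAD had the closest neighbours in pattern, ZYG11B (0.02), RAD17 (0.03), CD47 (0.035), DBT (0.036) and TUT7 (0.038). Those of TUG1 were SDAD1 (0.034), MSANTD3 (0.037), PPP1R37 (0.037), CERT1 (0.038) and LTV1 (0.039), and those of KCNQ1OT1 included SETD6 (0.092), NOM1 (0.095), NCEH1 (0.097) and METAP1D (0.099). A lncRNA that varies little has more genes near it, and the distance of the 100th nearest gene was 0.45 for MALAT1, 0.33 for NEAT1, 0.13 for KCNQ1OT1, 0.07 for NORAD and 0.06 for TUG1. Among the 5 themselves, KCNQ1OT1 and TUG1 were closest (0.18), MALAT1 and NEAT1 were 0.58 apart, and MALAT1 and NORAD were farthest (0.95).

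**Figure D5:**
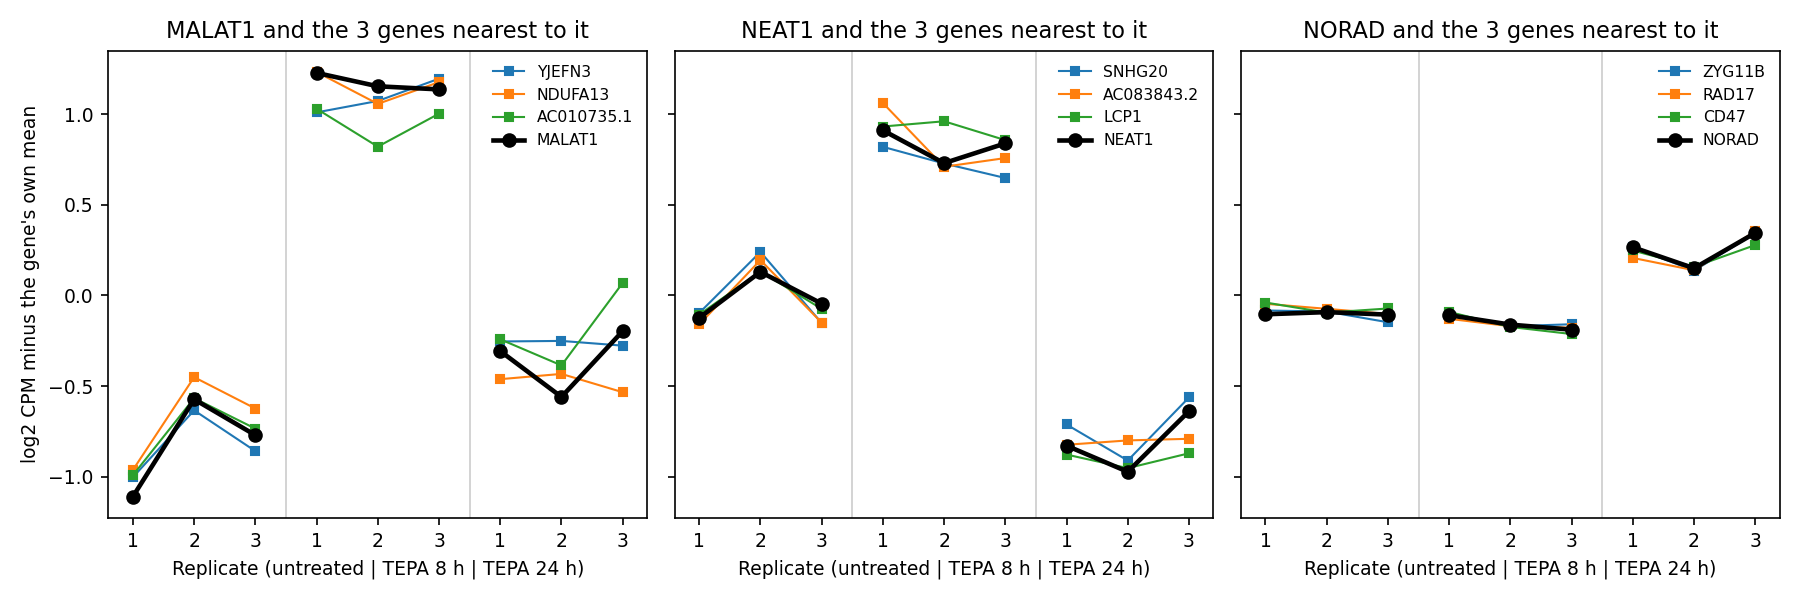
The y axis gives log2 CPM minus each gene's own mean in the 3 replicates of each group (x axis) for MALAT1, NEAT1 and NORAD (black) and the 3 genes nearest to each (colours). These neighbours lie within 0.18 of MALAT1 by root mean square difference and within 0.035 of NORAD.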

How the data were processed

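Total RNA of MDA-MB-231 cells was sequenced in 9 libraries, 3 per group, with a stranded mRNA kit and paired-end reads. Per the labels and methods, the authors ran FastQC, aligned reads with HISAT2 to hg38 and counted them per gene name over exons, by strand, with featureCounts on an Ensembl GRCh38 annotation, with tool versions not given in the sources used here. The authors deposited raw counts without normalization.

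In R 4.3.3 with edgeR 4.0.16, filterByExpr (minimum count 10) kept 16556 of 59453 gene names. Libraries were scaled by TMM factors (0.978 to 1.04) and fitted in 1 quasi-likelihood model, with a biological coefficient of variation of 0.0481 and Benjamini-Hochberg adjustment over all genes tested. Calls used an adjusted p under 0.05, and MALAT1 was given no test. A permutation of 3 libraries against 3 cannot give a p under 0.1. The procedure was tested on simulated data.

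Members and gene lists were chosen with earlier results of these data known. Genes named from a list are the 3 with the largest change among those called in either comparison with untreated cells and with a mean of at least 100 counts; lists of 3 genes may be named whole, and the 5 genes nearest in log2 CPM (prior count 2) are named per lncRNA, except a few that are left out. Alternatives were RLE and upper-quartile factors, libraries without mitochondrial genes or without the 5 lncRNAs, DESeq2 1.42.0, 2 other count filters, a log2 fold limit of 0.5, unadjusted p-values, fits of only the groups compared, a replicate block, and leaving out each library. Motifs were searched in GENCODE v44 transcripts on hg38 and in RefSeq promoters. Total counts ran from 34633755 to 49342659 per library.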

Additional observations from a re-analysis of the deposited data

Results flagged for a closer look

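For 4 of the lncRNAs the change at 24 h differed from that at 8 h by the test of the difference itself, edgeR's quasi-likelihood test of 24 h against 8 h with Benjamini-Hochberg adjustment. By that test 28.8% of all genes were called lower and 26% higher, so such a call was common. NEAT1 differed by -1.64 on the log2 scale (adjusted p = 2.9e-10), KCNQ1OT1 by -0.44 (adjusted p = 0.0049), TUG1 by -0.3 (adjusted p = 2.5e-05) and NORAD by 0.41 (adjusted p = 1.3e-06). In each case all 3 libraries at 24 h lay on 1 side of all 3 at 8 h, as they did for 32.4% of all genes downward and 29.6% upward. MALAT1 was not tested in this comparison.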

How the results depend on the processing

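No direction reversed for a called value of the 4 lncRNAs tested. With a log2 fold limit of 0.5 added to the adjusted p, the genes called went from 8216 to 2943 at 8 h, from 8688 to 3095 at 24 h and from 9079 to 3505 between the times. Leaving out each library moved the 24 h change of TUG1 between -0.18 and -0.11, with its call lost 3 times by the values given with it, and that of KCNQ1OT1 between -0.05 and 0.14 (adjusted p from 0.42 to 0.95). The other tested 24 h values kept their call, between -0.89 and -0.73 for NEAT1 and 0.31 and 0.41 for NORAD. MALAT1, without a test, lay between 1.84 and 2.1 at 8 h and 0.31 and 0.58 at 24 h. With the replicate number as a block, 7779, 8355 and 8758 genes were called in the 3 comparisons and no call of the 4 lncRNAs tested changed. Same-numbered libraries correlated in their deviations at -0.0801 to 0.0383, so no shared signal by replicate number was seen. Whether same-numbered libraries were handled together is not known. Among the named genes of the lists, NONO left out, 1795 of 1886 values stayed on their side of the threshold, 66 lost a call and 25 gained one. DESeq2 called 7662, 8108 and 8539 genes. Other scalings moved the median of all genes by at most 0.026. The cause of these shifts was not tested.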

Other observations

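MIR17HG, the host transcript of the miR-17-92 cluster, and MIAT, another lncRNA known to be nuclear, had the same order of group means as NEAT1. Both had a mean under 100 counts. MIR17HG measured 1.32 ± 0.403, 2.99 ± 0.265 and 0.788 ± 0.226 CPM without TEPA, after 8 h and after 24 h (SD, n = 3). MIAT was at 0.368 ± 0.115, 0.774 ± 0.0214 and 0.16 ± 0.0233 CPM. The fall from 8 h to 24 h was called for MIR17HG (-1.90, adjusted p = 3.7e-06) and for MIAT (-2.24, adjusted p = 2.5e-05) by edgeR's quasi-likelihood test. TIGD3, 65.2 kb from NEAT1, also under 100 counts on average and named after its values were seen, was higher on the log2 scale by 1.40 after 8 h (adjusted p = 2.1e-05) and by 1.92 after 24 h (adjusted p = 3.5e-07). Leaving out any 1 library kept the MIR17HG fall between -2.18 and -1.73 and the MIAT fall between -2.35 and -2.16.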
